A study of Arabidopsis thaliana with 8 samples.

Results

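Transcripts of the chloroplast genome were measured in roots of Arabidopsis thaliana, in the hy5 mutant and in wild type (WT), with or without the cytokinin benzyladenine (BA). The genes described are all loci of the authors' tables whose code begins with ATCG, with transcripts summed to the locus and at least 10 estimated counts over the 8 libraries. This left 85 of 88 chloroplast loci, out of 27628 loci in the tables. The 3 loci below the minimum were petN, petL and 1 copy of ycf1 (ATCG01000). The 4 groups were hy5 BA, WT BA, hy5 Control and WT Control, with 2 libraries each. All plants had grown for 1 week on vertical plates of 0.5x Murashige and Skoog medium before their roots were cut off and placed in liquid medium of the same strength, with 0.1 uM BA or without it. The allele of hy5 and the length of the treatment are not stated in the labels. HY5, the bZIP transcription factor that promotes light responses and gives the mutant its name, lay between 0.826 and 1.97 CPM (counts scaled to a library of 1000000) in the 4 hy5 libraries and between 31.0 and 32.4 CPM in the 4 WT libraries.

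The chloroplast genome encodes core subunits of both photosystems, the cytochrome b6f complex, the ATP synthase and the NADH dehydrogenase-like (NDH) complex, the large subunit of Rubisco, ribosomal proteins and a bacterial-type RNA polymerase. That plastid-encoded polymerase needs sigma factors made from nuclear genes and transcribes most photosynthesis genes, while a phage-type polymerase encoded in the nucleus transcribes, among others, the rpoB operon and accD. Plastids of roots are mostly not green, and their photosynthesis genes are known to be transcribed at low levels. The libraries were made from RNA selected with oligo-dT. In plastids a poly(A) tail marks RNA for decay rather than stabilising it, so the values below describe the chloroplast RNA that oligo-dT retained and not all chloroplast RNA.

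The tables give locus codes without symbols. Symbols were assigned by matching the coding length of each locus with the RefSeq annotation of the chloroplast genome in the build TAIR10.1: 57 of the 88 loci by a length found once, 8 as copies in the inverted repeat and 13 by length together with the position between matched neighbours. A total of 75 of the 85 members received a symbol this way, and 10 are given by code only. The repeat is present 2 times in the genome, and the 7 pairs of loci in it that held equal counts in each library, within 0.02 counts, stand for 7 sequences, which leaves 78 distinct members. All listed loci code for proteins.

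The sequences shown here give context to genes described below. The first is the stretch upstream of psbA, the gene with the largest fold described below, in which a script found the boxes TTGACA and TATACT (in capitals) 18 bases apart, the first 115 bases before the start codon. It is read 5′ to 3′ on the minus strand at Pltd:1524-1565 of TAIR10.1.
psbA upstream: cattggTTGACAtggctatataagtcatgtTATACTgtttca
The others are the longest run of A (in capitals) inside 4 coding sequences, because RNA with such runs can also be held by oligo-dT. The genes rpoA (Pltd:78080-78123, minus strand) and accD (Pltd:57357-57399, plus strand) carry long runs, and psbA (Pltd:1353-1386, minus strand) and psaA (Pltd:41782-41816, minus strand) carry short ones.
rpoA: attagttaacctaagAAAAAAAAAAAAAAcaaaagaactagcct
accD: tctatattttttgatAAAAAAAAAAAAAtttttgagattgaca
psbA: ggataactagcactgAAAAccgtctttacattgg
psaA: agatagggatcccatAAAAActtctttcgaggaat

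Chloroplast loci held few of the counts in any library. They summed to between 8770 and 22493 of 29928501 to 35289411 estimated counts per library. Replicate libraries differed by more than sampling noise over the chloroplast loci, with a chi-square per locus of 1.57 to 2.74 where noise alone gives about 1. Nothing in the labels says that they come from separate cultures, so p-values measure the spread between these libraries, which may be technical. In hy5 BA 2 and hy5 Control 1, 23.5% and 21.6% of listed transcripts carried a fractional count lying 0.001 or less from the nearest integer. This share was 1.34 to 1.53% for the remaining 6 libraries.

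In counts per 1000000 of the library, chloroplast loci took up 323 and 403 counts in hy5 BA, 506 and 385 for WT BA, 258 and 334 for hy5 Control, and 664 and 554 for WT Control. The group means were 363 ± 56.7, 446 ± 84.9, 296 ± 54.0 and 609 ± 78.0 in that order (SD, n = 2 each). Both hy5 Control libraries were thus below both WT Control libraries, at 0.486 of the WT Control mean, while the ranges of hy5 BA and WT BA overlapped. The mean of WT BA was 0.732 of that of WT Control, and the mean of hy5 BA was 1.22 times that of hy5 Control. Loci of the mitochondrial genome, the other organelle genome in the same libraries, took up 588 and 847 counts per 1000000 in hy5 BA, 617 and 709 for WT BA, 508 and 520 for hy5 Control, and 733 and 621 for WT Control. They were also lower in hy5 Control than in WT Control, at 0.759 of its mean. Fewer plastids or cells of a type and less RNA in each cannot be told apart in RNA from whole roots.

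**Figure D1:**
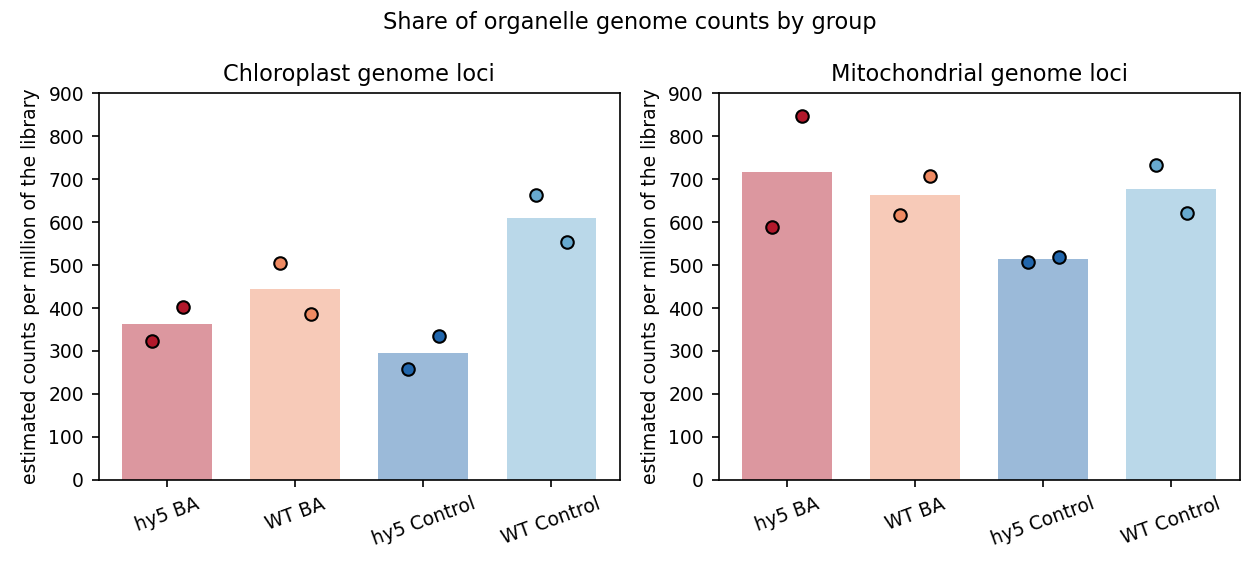
Estimated counts of chloroplast genome loci (left) and mitochondrial genome loci (right) per 1000000 counts of the library. Points are libraries and bars are the means of 2 libraries. The chloroplast points of hy5 Control, 258 and 334, lie below those of WT Control, 664 and 554.

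The genes that dominated the chloroplast counts in these roots were not photosystem genes. The beta subunit of the ATP synthase (atpB) held 16.3% of all chloroplast counts over the 8 libraries, ycf1, a large protein of the plastid envelope, 12.2%, and the ribosomal protein gene rpl16 6.96%. Levels between genes were compared only per length and only for the 40 members of at least 500 bases, a limit chosen after seeing the data. The reason is that the 22 members under 250 bases held 57.7 to 76.0% of the chloroplast TPM, the authors' unit scaled to length and depth, with 3.48 to 7.43% of the counts, because their deposited effective lengths are only a few bases. On this TPM scale the highest levels, averaged over the 8 libraries, were 56.0 for atpB, 49.3 for rps3 of the small ribosomal subunit, 24.5 for rpl2, 22.9 for psbA and 11.9 for rbcL. The lowest were 0.244 for ycf2 and 0.287 for ccsA, which acts in cytochrome c maturation. The values of rpl2 and ycf2 are per locus, and these genes are equal pairs in the inverted repeat. Each locus of such a pair held the same counts, so a value per locus may understate the level of the sequence. The places of rpl2 and ycf2 among the highest and lowest levels are therefore not settled. The place of psbA in this order depended on the genotype. Its level was 6.98 and 5.59 TPM in hy5 BA, 39.3 and 39.8 for WT BA, 3.91 and 2.79 for hy5 Control, and 42.5 and 42.4 for WT Control. The level of atpB was 40.8 and 47.8 TPM in hy5 BA, 67.9 and 48.0 for WT BA, 36.4 and 50.4 for hy5 Control, and 87.8 and 69.2 for WT Control. All hy5 values of psbA lay below all its WT values, while for atpB the higher hy5 BA value, 47.8, came next to the lower WT BA value, 48.0.

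In control medium, most chloroplast genes were lower in hy5 than in WT. Of the 72 members that passed the filter on low counts, 48 fell in hy5, none rose and 24 did not pass the test (edgeR quasi-likelihood test, adjusted p under 0.05 over 22682 genes). Among all genes tested 11.4% were called lower, 13.7% higher and 25.1% in either direction. At an unadjusted p under 0.05 no member was higher and 61 were lower, and DESeq2 called 0 higher and 30 lower. Counting each equal pair once, 44 of 66 fell. The median log2 fold of the 72 members was -1.01, against -0.001 over all genes, and 71 of the 72 folds were negative. The 13 members not tested for low counts were psbF, psbI, psbK, psbZ, psaC, psaI, petG, ndhE, ndhG, ndhI, rps16 and the pair ATCG00870 and ATCG01270. The groups hy5 Control and WT Control did not overlap in CPM for 74 of all 85 members, where 63.0% of all genes tested did not. Leaving out single libraries changed the count: 27 members were called without hy5 Control 1, and 31 without WT Control 1, the library with the highest chloroplast share. In each of the 8 runs that left out 1 library, 25 of the 48 were called.

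**Figure D2:**
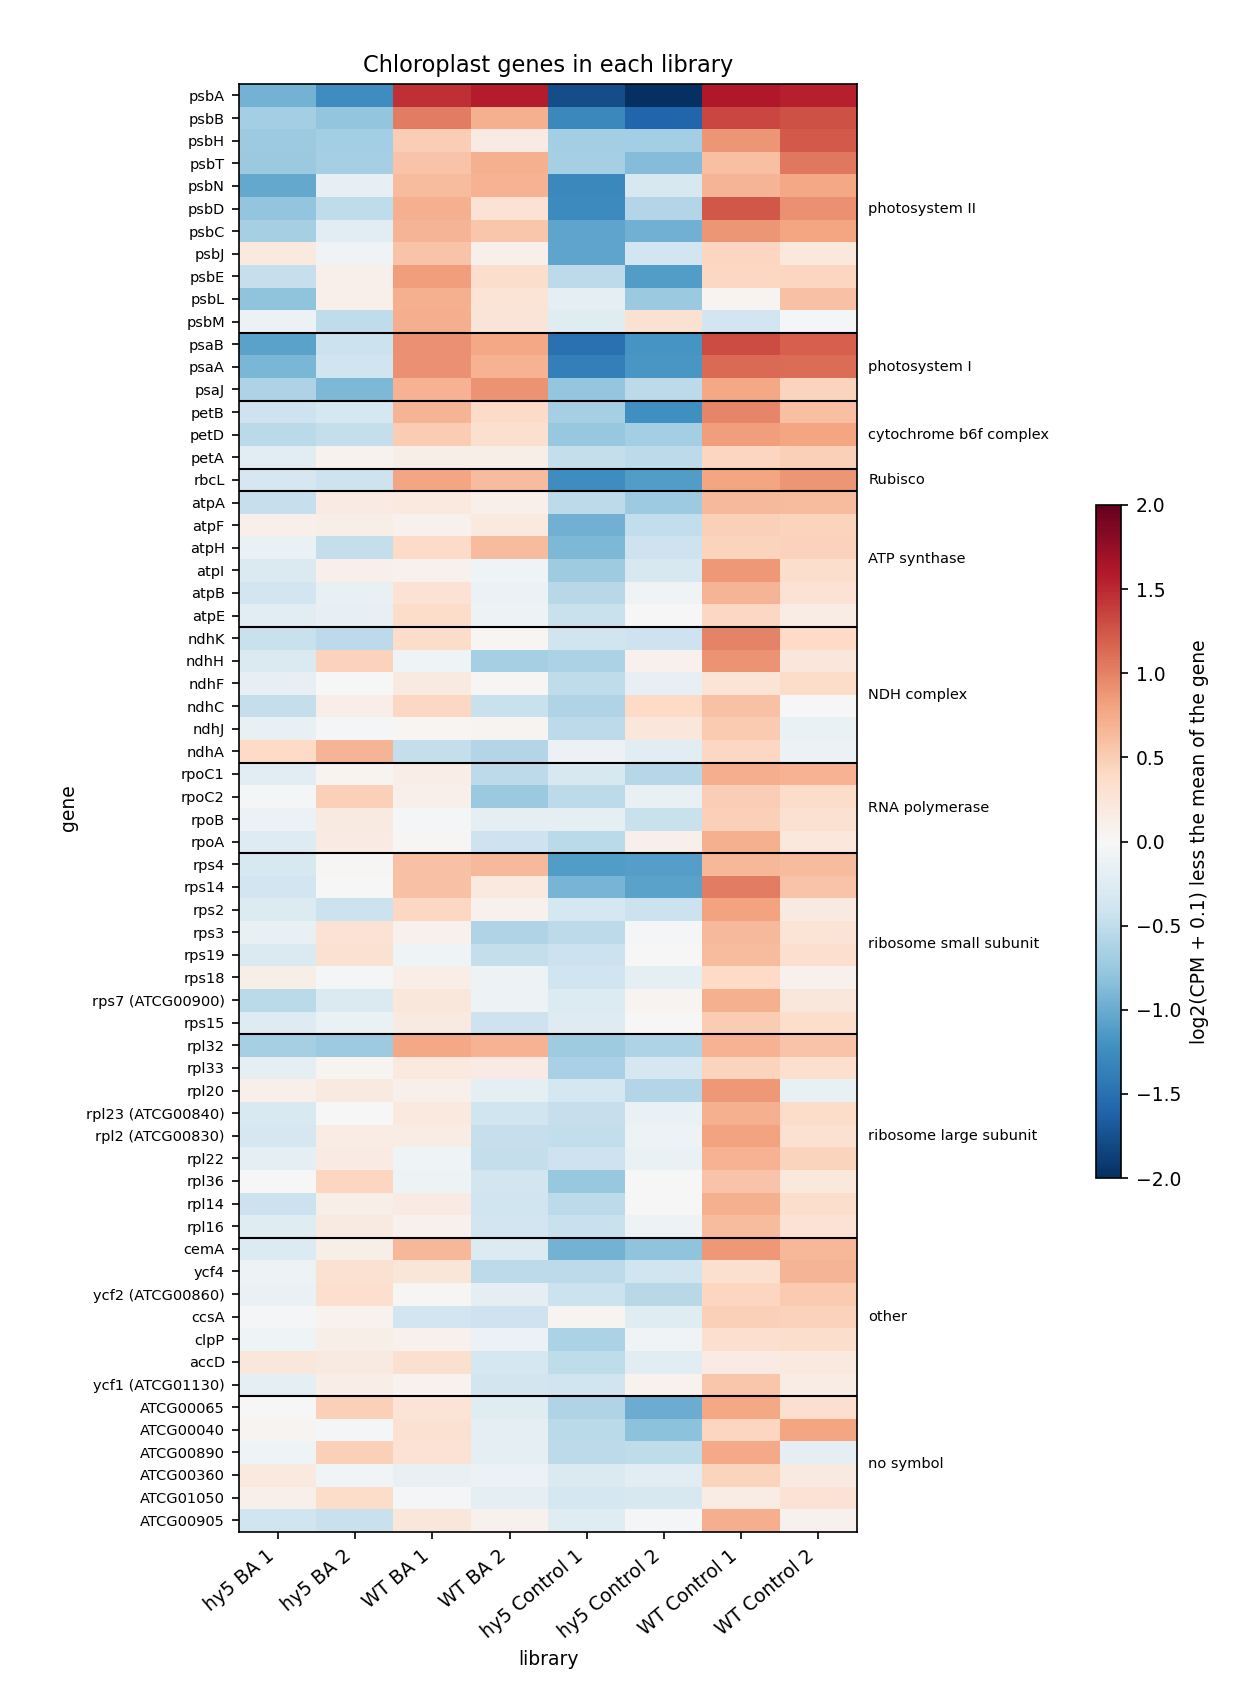
Each row is 1 of 64 of the 66 tested chloroplast genes (1 of each equal pair), grouped by role, and each column 1 library. Colour is log2(CPM + 0.1) less the mean of the gene over the 8 libraries. Most photosystem genes, at the top, are low in the hy5 libraries of both media, and most ribosomal and RNA polymerase genes are highest in WT Control 1.

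Photosystem II, the complex that splits water, held the largest fold. Its D1 reaction centre protein is encoded by psbA (ATCG00020, Pltd:383-1444, minus strand), which had 3.18 and 2.30 CPM in the hy5 controls and 34.1 and 32.9 CPM in WT Control. The 4 libraries fell into 2 groups far apart, and the log2 fold was -3.61 ± 0.13 (SE, edgeR adjusted p = 1.4e-11). The D2 protein gene psbD fell by 2.1 on the log2 scale, and the chlorophyll-binding antenna genes psbB and psbC fell by 2.80 and 1.88. For psbB this came from 1.87 and 1.49 CPM in hy5 Control, against 12 and 11.5 CPM in WT Control. In all, 8 of 11 tested photosystem II genes fell, with a median of -2.1, and psbJ, psbL and psbM did not pass the test. The gene psbM, for a small subunit, was the 1 member with a positive fold (0.28, edgeR adjusted p = 0.54). Among the 8 is psbN, which lies on the opposite strand between psbT and psbH. The labels do not say whether strand was kept, so its reads cannot be told apart from those of its neighbours' transcript.

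Photosystem I, which reduces ferredoxin, behaved in the same direction. The genes of its reaction centre pair, psaA and psaB, fell by 2.44 and 2.67 on the log2 scale (edgeR adjusted p = 1.2e-08 and 3.9e-08). Values of psaA were 1.99 and 2.33 CPM in the hy5 controls and 11.8 and 11.7 CPM in WT Control, with no overlap. All 3 tested genes of photosystem I fell. Between the photosystems, the cytochrome b6f genes petA (cytochrome f), petB (cytochrome b6) and petD (subunit IV) fell by 1.04, 1.92 and 1.66. The carbon-fixing enzyme Rubisco has its large subunit encoded by rbcL, which had 5.05 and 5.49 CPM in the hy5 controls and 21.0 and 22.4 CPM in WT Control. Its log2 fold was -2.04 ± 0.10 (SE, edgeR adjusted p = 5.2e-10).

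Folds were smaller for the ATP synthase, the NDH complex and the genes of gene expression. In the ATP synthase 4 of 6 genes fell, the peripheral stalk gene atpF by 1.29, the alpha subunit gene atpA by 1.32, and atpH and atpI of the membrane part by 1.21 and 1.2. For atpB the log2 fold was -0.81 ± 0.25 (edgeR adjusted p = 0.081), and it had 45.4 and 63.6 CPM in the hy5 controls and 108 and 82.5 CPM in WT Control. Both hy5 values were lower, but the libraries of each group were far apart. Of the RNA polymerase genes, rpoB, rpoC1 and rpoC2 fell by 0.73, 1.2 and 0.79, and rpoA did not pass the test (-0.67, edgeR adjusted p = 0.13). In the NDH complex, which carries electrons back from ferredoxin to plastoquinone, 2 of 6 genes fell, ndhF by 0.68 and ndhK by 1.23. Of the tested ribosomal protein genes with a symbol, 8 of 11 of the small and 6 of 11 of the large subunit fell, with medians of -0.74 and -0.87. Those of rps4 (-2.21), rps14 (-2.0) and rpl32 (-1.31) were the furthest down, and rps4 and the envelope protein gene cemA (-1.96) are named here after their values were seen. The acetyl-CoA carboxylase gene accD fell by 0.56 and the protease gene clpP by 0.69, while ycf1 had a log2 fold of -0.51 that did not pass (edgeR adjusted p = 0.25). Several of these calls ended when 1 library was left out: atpH and clpP without hy5 Control 1, ndhK without WT Control 1, and ndhF without hy5 Control 1 or WT Control 2. The call of rpoC2 ended without any 1 of the 4 libraries compared, and that of accD without any 1 library other than those of WT BA. Of the 8 tested loci given by code, 4 fell, by 0.59 to 1.90.

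**Figure D3:**
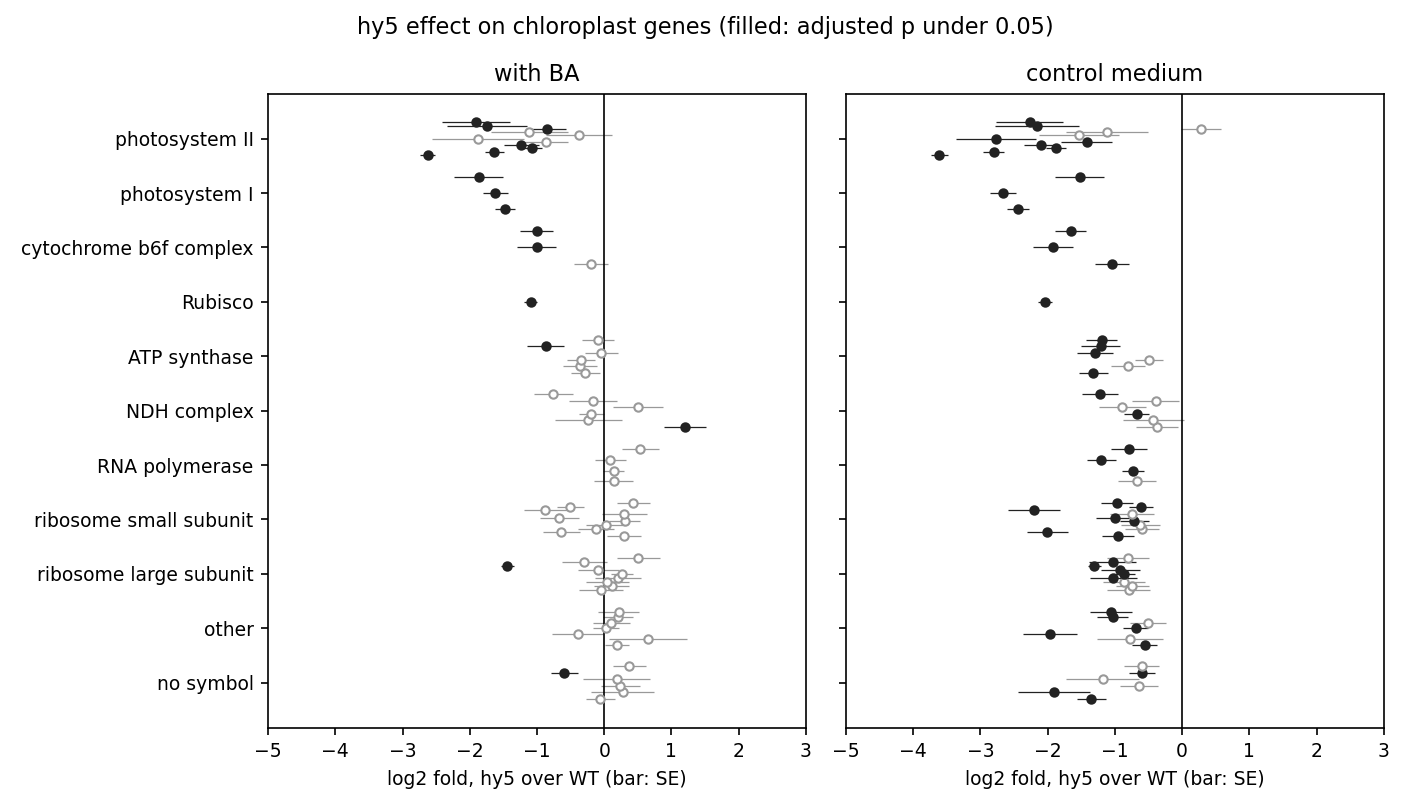
Log2 fold of hy5 over WT with its SE for each of 66 tested chloroplast genes, with BA (left) and in control medium (right), in rows by role. Filled points passed an adjusted p under 0.05. In control medium every fold except that of psbM is below 0, and with BA the negative calls sit mainly in the rows of the photosystems, the cytochrome b6f complex and Rubisco.

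With BA, the hy5 effect was found in fewer genes. Of 72 members, 17 fell in hy5 BA relative to WT BA, 1 rose and 54 did not pass the test, against 23.5% called in either direction, 12.4% lower and 11.0% higher, among all genes tested. DESeq2 called 9 lower and 0 higher. The median of the members was -0.14, against 0.01 over all genes, and the groups did not overlap for 45 of 85 members, where 60.8% of all genes tested did not. These libraries are not those of the control medium comparison. Of the 48 genes that fell in control medium, 16 also fell with BA, which is 33.3% of that list and 94.1% of the 17. Across the 66 distinct tested genes, the folds in both media had a Pearson r of 0.74 and a Spearman rho of 0.61. This describes genes that share libraries and transcripts, and they are not independent points. With either hy5 BA library left out, 11 members were called.

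The genes that fell with BA were those of photosynthesis for the most part: 7 of 11 in photosystem II, all 3 in photosystem I, petB and petD, rbcL and 1 of the ATP synthase (atpH). The equal pair ATCG00905 and ATCG01230 fell as well, a call kept in 2 of the 8 runs that left out 1 library. Of the photosystem II calls, that of psbN was kept in 3 of the 8 runs and those of psbM and psbT in 5 each, and all 3 ended without hy5 BA 1. The gene psbA had 5.75 and 4.63 CPM in hy5 BA and 30.9 and 33.5 CPM in WT BA. Its log2 fold was -2.63 ± 0.12 (SE, edgeR adjusted p = 1.8e-10), and no hy5 value came near a WT value. The folds of psbB, psaB and psaA were -1.63, -1.62 and -1.48, and that of rbcL was -1.09 ± 0.09 (SE, edgeR adjusted p = 3.6e-07). None of the RNA polymerase genes or small subunit ribosomal genes with a symbol fell in edgeR or in DESeq2. At an unadjusted p under 0.05, 0 and 5 of them were lower. Loci given by code only are not counted in these roles. Among the large subunit genes only rpl32 fell, by 1.44. The calls of atpH and petB ended without either of the hy5 BA libraries, that of atpH also without WT BA 2 and that of petB also without WT BA 1. The gene rpl32 had 8.0 and 7.63 CPM in hy5 BA, 21.8 and 20.7 for WT BA, 7.71 and 8.32 for hy5 Control, and 20.6 and 19 for WT Control. It was thus apart between the genotypes by nearly the same amount in both media. For rpoB the fold was 0.14 (edgeR adjusted p = 0.59), and it had 3.52 and 4.36 CPM in hy5 BA against 3.75 and 3.39 CPM in WT BA, with overlap. The 1 gene that rose, ndhA of the NDH complex, had 1.04 and 1.3 CPM in hy5 BA and 0.526 and 0.480 CPM in WT BA (log2 fold 1.21 ± 0.31, SE, edgeR adjusted p = 0.0097). That call ended without hy5 BA 2 or without WT BA 2.

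**Figure D4:**
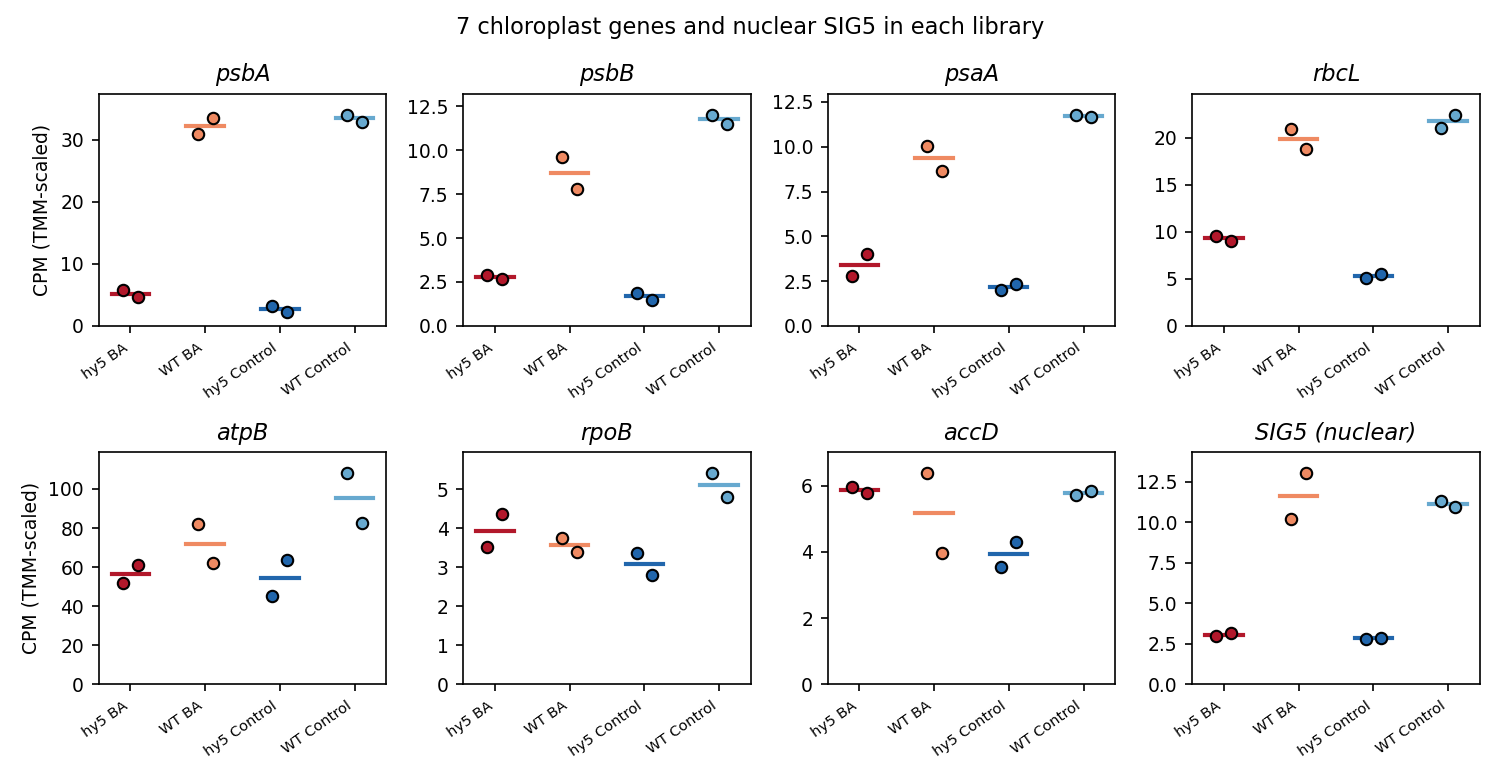
CPM of 7 chloroplast genes and of the nuclear gene SIG5 in each library, with each axis starting at 0. Points are libraries and lines are means of 2. For psbA, psbB, psaA, rbcL and SIG5 all 4 hy5 points lie below all 4 WT points, while for atpB, rpoB and accD the hy5 BA points reach into the range of WT BA or come close to it.

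BA changed few chloroplast genes in either genotype. In hy5, 6 of 72 members rose and none fell, against 3.11% called higher, 8.01% lower and 11.1% in either direction among all genes tested. In WT, 5 of 72 fell and none rose, against 4.33% called lower, 3.88% higher and 8.2% in either direction. The median log2 folds of the members were 0.35 in hy5 and -0.43 in WT, against 0.02 and 0.01 over all genes, and 61 folds were positive in hy5 and 65 negative in WT. At an unadjusted p under 0.05 in edgeR, 20 members were higher and 0 lower in hy5, and 1 was higher and 28 lower in WT. DESeq2 called 3 higher and 0 lower in hy5, and 0 higher and 4 lower in WT. The groups did not overlap for 49 of 85 members in hy5 and 52 of 85 in WT, where 55.9% and 52.4% of all genes tested did not.

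The 6 genes that rose in hy5 with BA were psbA, rbcL, psbB, psaA, psbC and atpF. The value of psbA was 5.75 and 4.63 CPM in hy5 BA and 3.18 and 2.30 CPM in hy5 Control (log2 fold 0.92 ± 0.16, SE, edgeR adjusted p = 0.00089). That of rbcL was 9.53 and 9.05 CPM in hy5 BA and 5.05 and 5.49 CPM in hy5 Control (log2 fold 0.82 ± 0.11, SE, edgeR adjusted p = 0.00011). Neither gene overlapped between the groups, and both were called in each of the 8 runs that left out 1 library. The folds of psbB, psaA, psbC and atpF were 0.74, 0.64, 0.59 and 0.91. The call of atpF ended in every run that left out 1 library. Those of psaA and psbC ended without hy5 BA 2, hy5 Control 1 or hy5 Control 2, and that of psbB without hy5 BA 1, hy5 BA 2 or hy5 Control 2. The total was 2 without hy5 BA 2 or without hy5 Control 2, and 3 without hy5 Control 1.

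Among the 5 genes that fell in WT with BA were rpoC1, psbB and the large subunit ribosomal protein gene rpl22, with log2 folds of -0.91, -0.44 and -0.86. For rpoC1 the values were 2.14 and 1.31 CPM in WT BA and 3.25 and 3.20 CPM in WT Control, and WT BA 1 lay between WT BA 2 and the controls. No member was called without WT BA 2 or without WT Control 1, 3 were called with either of the hy5 BA libraries left out, which enter through the shared estimate of spread, and 11 without WT Control 2. The photosystem genes other than psbB did not pass in WT: psbA had 30.9 and 33.5 CPM in WT BA and 34.1 and 32.9 CPM in WT Control, which overlap.

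The BA response differed between hy5 and WT for 3 members, psbA, rbcL and psbB, all with the higher log2 fold in hy5, against 0.0485% of all genes called higher, 0.436% lower and 0.485% in either direction. The difference of the log2 folds, hy5 less WT, was 0.98 ± 0.18 for psbA (0.92 in hy5 and -0.06 in WT, edgeR adjusted p = 0.033). It was 0.95 ± 0.14 for rbcL (0.82 in hy5 and -0.13 in WT, edgeR adjusted p = 0.015) and 1.17 ± 0.22 for psbB (0.74 in hy5 and -0.44 in WT, edgeR adjusted p = 0.035). The difference was positive for 66 of the 72 members, with a median of 0.89 against -0.01 over all genes, and 69 of the 72 did not pass the test. The number of members called was 0 without hy5 BA 2, without WT BA 2 or without hy5 Control 1, 1 without WT BA 1 or without hy5 Control 2, and 6 without hy5 BA 1. None of the 3 was called in all of the 8 runs.

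**Figure D5:**
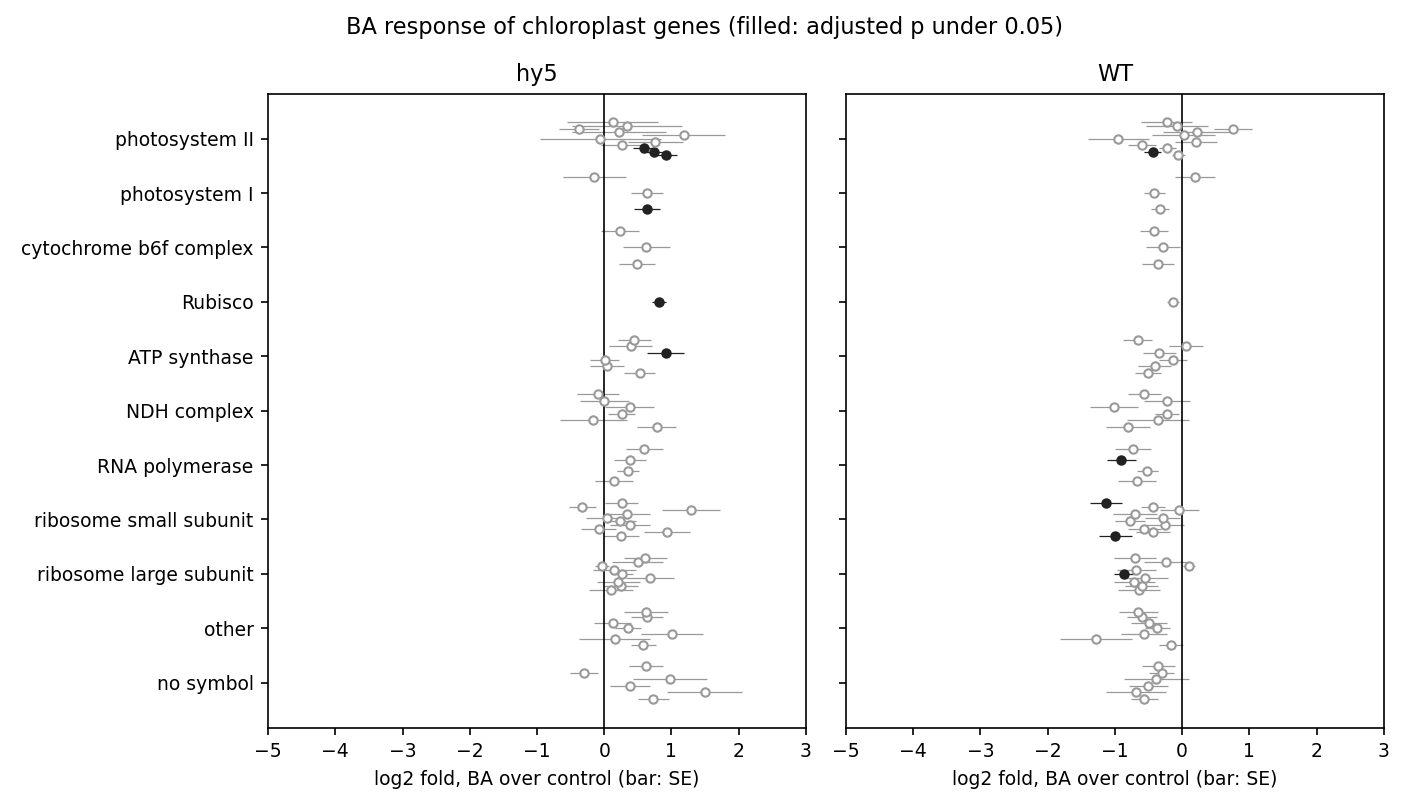
Log2 fold of BA over control with its SE for each of 66 tested chloroplast genes, in hy5 (left) and in WT (right), in rows by role. Filled points passed an adjusted p under 0.05. The 6 calls in hy5 are positive and lie in the photosystem, Rubisco and ATP synthase rows, and the 5 calls in WT are negative.

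Within the chloroplast genome, the make-up of the counts differed between the genotypes. Photosystem II genes held 4.86 and 4.12% of the chloroplast counts in hy5 BA, 11.7 and 14.4% for WT BA, 3.97 and 2.98% for hy5 Control, and 9.95 and 11.6% for WT Control. Photosystem I genes held 1.46 and 1.71% in hy5 BA, 3.40 and 3.85% for WT BA, 1.25 and 1.17% for hy5 Control, and 3.12 and 3.70% for WT Control. No hy5 library reached a WT library in either share, with BA or without. The ATP synthase genes held between 22.3 and 26.9% in all 8 libraries, with overlap of the genotypes. The ratio of psbA to atpB counts, which does not depend on the library total, was 0.111 and 0.0761 in hy5 BA, 0.377 and 0.541 for WT BA, 0.0700 and 0.0361 for hy5 Control, and 0.315 and 0.399 for WT Control. The ratio of rbcL to accD was 1.59 and 1.57 in hy5 BA, 3.27 and 4.73 for WT BA, 1.42 and 1.27 for hy5 Control, and 3.66 and 3.84 for WT Control. Both ratios were lower in each hy5 library than in each WT library.

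When the same model used the chloroplast counts of each library as its size, so that each fold is relative to the chloroplast genome as a whole, 13 members were called lower and 1 higher in hy5 in control medium. Under this scaling 86.1% of all genes tested were called, since most genes are not on the chloroplast genome and shift with the size used. The 13 were psbA, psbB, psbC, psbD, psbH, psbT, psaA, psaB, petB, rbcL, rps4, rps14 and cemA, with psbA at -2.63 ± 0.30 (SE, edgeR adjusted p = 1.1e-15), and psbM was the 1 called higher. Among the folds that became positive on this scale were those of accD, rpoB, clpP and ndhF, at 0.39, 0.25, 0.24 and 0.26, and none of these passed the test. With BA, 6 members were lower on this scale (psbA, psbB, psaA, psaB, psaJ and rpl32) and ndhA was higher, against 8.21% of all genes called. In the BA responses psbM in WT was the 1 member called on this scale, higher with BA, against 2.86% of all genes. By edgeR no member was called in hy5, where 1.6% of all genes were and 4 members were higher at an unadjusted p under 0.05. None was called in the difference of the responses, where 0.392% of all genes were and 2 members were lower at an unadjusted p under 0.05.

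Genes of the same transcription unit share transcripts, and their hy5 folds in control medium are given by unit, with no test of their likeness. In the unit psbB-psbT-psbH-petB-petD all 5 genes fell, by 1.66 to 2.80. In psaA-psaB-rps14, which joins a ribosomal gene to photosystem genes, all 3 fell, by 2.0 to 2.67. With BA the folds of psaA and psaB were -1.48 and -1.62, and that of rps14 was -0.64 and did not pass the test (edgeR adjusted p = 0.12). In psbD-psbC both tested genes fell, by 1.88 and 2.1, and the end of psbD overlaps the start of psbC. In atpI-atpH-atpF-atpA all 4 fell, by 1.2 to 1.32. In atpB-atpE neither did, with folds of -0.81 and -0.50. In the unit of psbE, psbL and psbJ 1 of 3 tested genes fell, with folds of -1.53 to -1.12, and in that of ndhC, ndhK and ndhJ 1 of 3 fell, with folds of -1.23 to -0.39. In the polymerase unit rpoB-rpoC1-rpoC2 all 3 fell, by 0.73 to 1.2, and in the long ribosomal unit from rpl23 to rpoA 5 of 11 fell. With BA, 4 of 5 genes of the psbB unit fell and none of the polymerase or ribosomal units did.

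Nuclear genes that act in plastid transcription and RNA decay were compared in the same fit. Of 27 tested members of a list of 28, 6 fell and 2 rose in hy5 with BA, 7 fell and 1 rose in control medium, where 23.5% of all genes were called with BA and 25.1% in control medium. The list's share, 8 of 27 in each medium, was near these. BA changed none in either genotype by edgeR or DESeq2, with 4 higher in hy5 and 2 lower in WT at an unadjusted p under 0.05. SIG5, the sigma factor that in Arabidopsis directs the plastid-encoded polymerase to a light-responsive psbD promoter, had 2.96 and 3.18 CPM in hy5 BA, 10.2 and 13.0 for WT BA, 2.79 and 2.89 for hy5 Control, and 11.3 and 10.9 for WT Control. All hy5 values were lower, with log2 folds of -1.92 ± 0.14 with BA (edgeR adjusted p = 4.5e-08) and -1.97 ± 0.14 in control medium (edgeR adjusted p = 2.8e-08). PAP2, a protein associated with that polymerase, fell by 0.62 with BA and by 1.12 in control medium, and the sigma factor SIG6 by 0.74 and 0.62. SIG1 fell by 0.53 in control medium, and with BA its log2 fold was -0.23 (edgeR adjusted p = 0.081). The exoribonuclease RNR1 rose, by 0.52 with BA and 0.30 in control medium. For the phage-type polymerases, RPOTp had log2 folds of 0.12 with BA and -0.04 in control medium and RPOTmp of 0.07 and -0.05, and neither passed the test.

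Nuclear photosynthesis genes did not all go the same way in hy5. Of 13, 5 fell and 2 rose with BA, and 5 fell and 1 rose in control medium, against 23.5% and 25.1% of all genes called. In each medium 7 folds were negative and 6 positive. The genes that fell in hy5 in both media were RBCS1A, LHCB2.1, LHCB3, LHCA1 and RCA. In the BA response of hy5 all 13 folds were positive, with a median log2 fold of 1.16. Only 1 of them was called, against 3.11% of all genes called higher. In WT 7 were positive and 6 negative, with a median of 0.03, and edgeR called none. The difference of the responses was positive for 12 of 13, with a median of 1.11, and edgeR called none. The summed level of all 13 genes was 61.7 and 71.7 CPM in hy5 BA, 185 and 135 for WT BA, 23.2 and 50.8 for hy5 Control, and 138 and 183 for WT Control. Rubisco activase (RCA) had 9.70 and 11.2 CPM in hy5 BA, 27.5 and 26.5 for WT BA, 5.51 and 7.76 for hy5 Control, and 28.6 and 30.1 for WT Control, and it was the 1 gene that rose with BA in hy5 (log2 fold 0.65, edgeR adjusted p = 0.0044). Copies of RBCS and LHCB1 share sequence, so the split of reads among them is uncertain. The genes that rose were the carbonic anhydrase gene CA1, with log2 folds of 1.64 with BA and 1.29 in control medium, and with BA also RBCS1B, a copy of the Rubisco small subunit gene. RBCS1B had 0.479 and 1.48 CPM in hy5 BA against 0 and 0.0640 CPM in WT BA (edgeR adjusted p = 0.031).

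Of the 7 shoot markers, STM, CLV3, WUS, FIL and YAB3 were at or near 0 in every library, each at or below 0.247 CPM. The other 2, GL1 and CA1, passed the filter on low counts. Their log2 folds of hy5 over WT were 0.39 and 1.29 in control medium and 1.19 and 1.64 with BA. In each medium 1 of the 2 was called higher, against 13.7% of all genes in control medium and 11.0% with BA. The sum of the 7 shoot markers was 6.23 and 7.88 CPM in hy5 BA, 3.03 and 1.79 for WT BA, 5.42 and 6.92 for hy5 Control, and 2.60 and 2.76 for WT Control, and CA1 made up most of it. The sum was higher in each hy5 library than in each WT library. It follows mainly 1 gene, CA1, which is also on the list of nuclear photosynthesis genes, so it does not measure shoot content. The 6 root markers were present in all libraries. They summed to 4210 and 3869 CPM in hy5 BA, 5634 and 5958 for WT BA, 4784 and 4676 for hy5 Control, and 4933 and 4679 for WT Control, so the sums of hy5 BA lay below those of WT BA. With BA 3 of 6 fell in hy5, against 12.4% of all genes called lower. These were PYK10 by 0.55, COBL9 by 0.45 and EXPA7 by 1.01, the last 2 being root hair genes. In control medium EXPA7 fell by 0.68 and CASP1 of the endodermis rose by 0.30, against 11.4% of all genes called lower and 13.7% higher. Lists of 6 and 2 genes are too short to set against these shares. The part of these differences in the chloroplast values was not tested.

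The sequence features of the members were compared with their values as a description only. Over 34 matched members of at least 500 bases, the longest run of A in the coding sequence had a Spearman rho of -0.08 with the mean TPM. The 13 members with a run of 8 or more, such as rpoA and accD shown above, had a median hy5 fold in control medium of -0.73. The 47 tested members with shorter runs, such as psbA and psaA, had a median of -1.2. The share of A in the coding sequence had a Pearson r of 0.48 and a rho of 0.47 with that fold over 60 genes, and the longest run of A an r of 0.30 and a rho of 0.26. With the mean TPM the share of A had an r of 0.23 and a rho of 0.01 over the 34 members. These genes share libraries, operons and base composition, and a part of oligo-dT capture in the folds was not tested. In the windows from 250 bases before to 50 after each gene start, the motif TTGACA stood on either strand in 15.7% of 83 chloroplast windows and in 20.1% of 27472 other windows of TAIR10.1, and TATAAT in 43.4% and 40.2%. The pair TTGACA and TANNNT 16 to 19 bases apart, an arrangement like that shown for psbA, stood in 3.61% of the chloroplast and 2.62% of the other windows. The 3 chloroplast windows with it were those of psbA and of both copies of ycf1.

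Outside the chloroplast genome, stretches of at least 150 bases with at least 98% identity to a member were found for 2 of 75 matched members, rpoC2 over 4.50% and ccsA over 16.1% of the locus, both in the nuclear chromosomes. Reads from those stretches could be split between copies in the authors' counting.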

How the data were processed

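Per the labels' protocols, RNA was extracted with CTAB, selected with oligo-dT, fragmented by heat and copied with random primers. Per the submitters' processing notes the authors used Salmon and the build TAIR10. The version, options and strand setting are not stated there. The deposited tables hold estimated counts and TPM values per transcript, and, per the file headers, an effective length used in 1 alternative. Whether the matched TAIR10.1 annotation applies was checked by the order of the loci matched by a unique length or as repeat copies. All 64 of 64 steps between them were in the same order. Within a pair of repeat copies the order was set by the matching itself, so those loci are a weaker check.

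Counts were summed to loci by code, rounded, filtered with filterByExpr (minimum count 10, which left 22682 genes and removed 4946), scaled by TMM and fitted with a robust quasi-likelihood model in edgeR 4.0.16 (R 4.3.3) with 4 group means over 8 libraries. Tests were two-sided with Benjamini-Hochberg adjustment over all genes tested. CPM values are scaled by TMM, and the SE is the log2 fold divided by the root of the F statistic. DESeq2 1.42.0 was an alternative, and single libraries were left out in turn. Copies outside the chloroplast genome were sought with BLAST+ 2.17.0. The steps were tested on simulated data.

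The members and lists were chosen with earlier results of these data known. Genes were named by role (psbA to ycf2 of a fixed list, in which matK and ndhB could not be matched), by the smallest p in each comparison and direction (up to 6), by the 5 highest mean TPM and the 2 lowest totals, and up to 3 called genes of each nuclear list by p. Other genes are named to complete a role, unit or count and were chosen after their values were seen. The values of 2 named members are not reported here. Of the 2 lowest totals, rps16 had 10.0 and ndhE 20.0 counts. The highest mean TPM were those of rpl32, psbM, rps19, rpl36 and rpl16, which are all under the 500 bases set for comparing levels.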

Additional observations from a re-analysis of the deposited data

Results flagged for a closer look

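The BA response of 3 chloroplast genes differed between hy5 and WT in the test of the difference itself. The difference of the log2 folds, hy5 less WT, was 0.98 for psbA, 0.95 for rbcL and 1.17 for psbB (edgeR quasi-likelihood test, adjusted p = 0.033, 0.015 and 0.035). Over the alternatives tried the adjusted p ranged from 0.0020 to 0.51 for psbA, from 0.00079 to 0.49 for rbcL and from 0.019 to 0.29 for psbB, and the difference kept its sign. Of 17 alternatives, 10 called psbA, 12 called rbcL and 8 called psbB. A positive difference was not particular to these genes: it was found for 66 of the 72 members, with a median of 0.89. Relative to the chloroplast sum the difference was 0.31 for psbA, 0.32 for rbcL and 0.53 for psbB, and none was called.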

How the results depend on the processing

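The 5 counts of called members stood within 1.5 times of those reported under DESeq2's size factors in edgeR, library size only, no filter on low counts, effective length offsets, only the groups compared (all but the interaction), and equal pairs summed, an alternative chosen after seeing the data. Scaled to the chloroplast sum the counts were 1 for the BA response in WT, 0 in hy5, 14 for the hy5 effect in control medium, 7 with BA and 0 for the interaction. DESeq2's own test called 3 in hy5 under BA, 9 for the hy5 effect with BA and 30 for it in control medium. Without hy5 BA 2 and hy5 Control 1 together, the counts were 2 in hy5 under BA, 11 for the hy5 effect with BA, 25 for it in control medium, and 1 for the interaction. Leaving out 1 library each gave 0 to 11 for the BA response in WT, 2 to 7 in hy5, 27 to 49 for the hy5 effect in control medium, 11 to 20 with BA, and 0 to 6 for the interaction. On the scale of the chloroplast sum the hy5 fold in control medium turned positive for several named genes called in the main fit, as the scale's construction allows. These were ndhF (0.26), rpoB (0.25), rpoC2 (0.16), accD (0.39), clpP (0.24), rpl22 (0.10) and rps19 (0.24). Other members turned positive too, among them atpB (0.15), rpoA (0.28) and ycf1 (0.44), which passed on neither scale. The share of the chloroplast genome taken as summed TPM was 3446 for hy5 BA, 6218 for WT BA, 3235 for hy5 Control and 6913 for WT Control. Members under 250 bases held 57.7 to 76.0% of this sum. For members of at least 500 bases the summed TPM was 226 for hy5 BA, 292 for WT BA, 185 for hy5 Control and 410 for WT Control. Without the gene with the highest count, the share was 306 counts per 1000000 in hy5 BA and 512 in WT Control. Values of named genes kept their side of the threshold in 2727 cases, which include changes of sign where neither fit passed. They passed no longer in 126 cases and newly passed in 41. In 7 cases the sign reversed and the main fit, the alternative or both had passed. The replicate numbers did not pair the libraries, with correlations of deviations from -0.07 to 0.02. With them as a replicate block the counts were 5 for the BA response in WT, 5 in hy5, 18 for the hy5 effect with BA, 45 for it in control medium, and 3 for the interaction.

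Depth limits the low members, of which 13 had too few counts to test. With 2 libraries per group, a call rests on a spread estimated over all 8.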
